A study of Vitis vinifera with 6 samples.

Results

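The ethylene response factor (ERF) cluster on chromosome 16 of grapevine is a tandem group of genes whose identifiers share the prefix VIT_16s0013g. Its 10 members were taken by identifier: VIT_16s0013g00900, VIT_16s0013g00950, VIT_16s0013g00970, VIT_16s0013g00980, VIT_16s0013g00990, VIT_16s0013g01030, VIT_16s0013g01050, VIT_16s0013g01060, VIT_16s0013g01070 and VIT_16s0013g01090, where the last digits are the locus number along the chromosome. All 10 were on the array of 34369 features, with 1 probe each, and 9 of them were among the 27052 features bright enough to be tested. The ERF class of the members comes from this choice of identifiers, and no individual name was attached to any of them in the sources used here.

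RNA came from leaves of Vitis vinifera cv. Thompson Seedless plantlets grown in vitro. In the OX.NAC61 plants the NAC transcription factor gene NAC61 was expressed transiently from the constitutive 35S promoter after vacuum infiltration with Agrobacterium tumefaciens, and in the control plants the same bacterium delivered a vector with a non-coding sequence. Leaves were taken 7 days after infiltration from plants that the labels give as 6 weeks old, with 7 plants infiltrated for OX.NAC61 and 5 for the control. The 3 OX.NAC61 plants hybridised were those with the highest NAC61 transcript in a prior assay and were set against 3 control plants, each on its own one-colour Agilent array. Both groups had therefore met Agrobacterium, and neither an uninfiltrated leaf nor a stable NAC61 line was among the arrays.

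ERF proteins carry an AP2/ERF domain that binds the GCC box in promoters. Ethylene is made from ACC by ACC synthase and ACC oxidase, its perception relieves repression by the CTR1 kinase, and EIN3-type factors then switch on ERF genes. Many ERF genes also answer to jasmonate, wounding and microbes within a short time, and tandem copies of a family often arose from each other by duplication. Every level below is a scaled log2 signal, that is, the log2 processed signal of the probe minus the 75th percentile of its array, so a difference of 1 is a doubling. Levels of different probes are not compared, because probes differ in brightness at equal transcript amounts.

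The labels were checked first with NAC61 itself (VIT_08s0007g07640). Its level was -1.15, -0.66 and -0.47 on OX.NAC61 replicates 1, 2 and 3, against -2.48, -2.21 and -2.44 on control replicates 1, 2 and 3. The groups did not overlap, and the log2 fold change was 1.62 ± 0.21 (SE, limma adjusted p = 0.0285). OX.NAC61 replicate 1 had the lowest NAC61 level of its group, 0.49 below replicate 2. The arrays had 24501 to 28121 probes well above background, and their 75th percentile signal was 1780, 2580 and 2190 on OX.NAC61 replicates 1, 2 and 3, against 1620, 1330 and 889 on the control arrays. OX.NAC61 replicates 2 and 3 were scanned on day 2, whereas OX.NAC61 replicate 1 shared scan day 1 with the 3 controls. The recorded slide and position were the same for OX.NAC61 replicates 1 and 3 although their scan days differed, so the slide record may hold an error. Of 17 light-harvesting, Rubisco and photosystem genes used as leaf markers, 17 were above background on all arrays. Of them 16 were called lower in OX.NAC61 leaves, against 3.72% of all features. Most of those markers stood in the study's tables because they had been called on these arrays. The count called lower is therefore not independent evidence of a direction, and only their presence is used here.

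No member of the cluster passed the test in either direction. A feature was called when its Benjamini-Hochberg adjusted p in limma was below 0.1 and its fold change above 1.5. Of the 9 tested members 0 were called, 0 had an unadjusted p under 0.05, and the lowest adjusted p was 0.401. Over all features tested 6.81% were called, 3.09% as higher and 3.72% as lower in OX.NAC61 leaves, and 5513 features had an unadjusted p under 0.05. The share called over all features depended on the arrays and the block, at 0.262% without control replicate 2, 0.813% without control replicate 3, 11.9% without OX.NAC61 replicate 1 and 0.0481% with scan day as a block. Its balance turned too, with 62.4% of the calls higher under the replicate block, and the count of members called was 0 in each of these fits. The groups overlapped for all 9 tested members, whereas they did not overlap for 26.1% of all features, with 9.88% higher and 16.2% lower in OX.NAC61 leaves. The log2 fold changes of the members lay between -0.12 and 0.37 with a median of 0.15, and the median of all features was -0.05. The 95% interval stayed within a fold of 2 in either direction for 8 of 9 members and within a fold of 1.5 for 0 of 9, and the widest, that of VIT_16s0013g00900, reached a fold of 2.13.

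**Figure D1:**
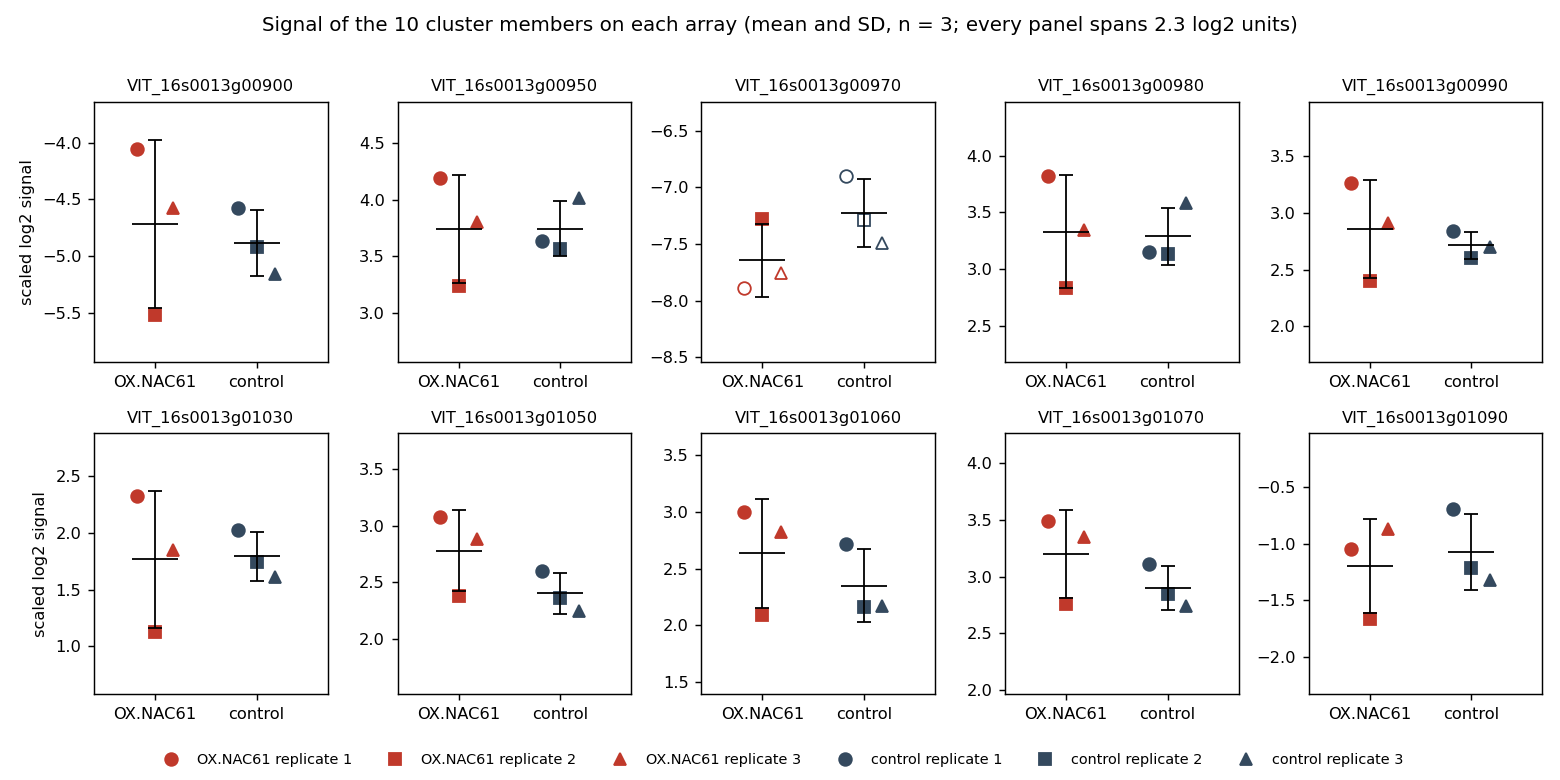
Scaled log2 signal (log2 signal minus the 75th percentile of the array) of the 10 cluster members, 1 panel per gene, with the 3 OX.NAC61 arrays left and the 3 control arrays right; filled symbols are spots well above background, and black bars are the mean and SD. OX.NAC61 replicate 1 (circle) is the highest of the 6 arrays in 8 of the 9 tested members, and OX.NAC61 replicate 2 (square) is the lowest in 7 of them.

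The tested members are described in 3 sets, which do not follow the order of the arrays alone. The first set was the run of neighbours VIT_16s0013g01050, VIT_16s0013g01060 and VIT_16s0013g01070. VIT_16s0013g01050 had levels of 3.08, 2.38 and 2.88 in the 3 OX.NAC61 leaves, against 2.60, 2.36 and 2.25 in the 3 control leaves. OX.NAC61 replicates 1 and 3 stood above every control, while replicate 2 fell among them. Its log2 fold change of 0.37 ± 0.22 (SE, 95% interval -0.16 to 0.90, limma adjusted p = 0.401) was the highest estimate of the cluster. VIT_16s0013g01060 had levels of 3.0, 2.09 and 2.82 in OX.NAC61 leaves, against 2.72, 2.16 and 2.17 in control leaves. VIT_16s0013g01070 had levels of 3.49, 2.76 and 3.35 in OX.NAC61 leaves, against 3.11, 2.85 and 2.74 in control leaves. In both genes OX.NAC61 replicates 1 and 3 exceeded the highest control and replicate 2 was near the lowest. The log2 fold changes were 0.29 ± 0.29 for VIT_16s0013g01060 (SE, limma adjusted p = 0.636) and 0.30 ± 0.23 for VIT_16s0013g01070 (SE, limma adjusted p = 0.523).

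The second set was VIT_16s0013g00950 and VIT_16s0013g00980, which differed from the rest in the control arrays. VIT_16s0013g00950 had levels of 4.19, 3.24 and 3.80 in OX.NAC61 leaves, against 3.64, 3.57 and 4.02 in control leaves. VIT_16s0013g00980 had levels of 3.82, 2.83 and 3.34 in OX.NAC61 leaves, against 3.15, 3.13 and 3.58 in control leaves. For both, OX.NAC61 replicate 1 was the highest array and replicate 2 the lowest, and control replicate 3 exceeded OX.NAC61 replicate 3. Control replicate 3 was above control replicate 1 by 0.38 in VIT_16s0013g00950 and by 0.43 in VIT_16s0013g00980, whereas it was below control replicate 1 in each of the other 7 tested members. The log2 fold changes were 0.00 ± 0.27 (SE, limma adjusted p = 0.998) and 0.04 ± 0.28 (SE, limma adjusted p = 0.957) for VIT_16s0013g00950 and VIT_16s0013g00980.

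The remaining tested members had fold changes on both sides of 0. VIT_16s0013g00990 had levels of 3.26, 2.40 and 2.91 in OX.NAC61 leaves, against 2.84, 2.60 and 2.70 in control leaves. VIT_16s0013g01030 had levels of 2.33, 1.13 and 1.85 in OX.NAC61 leaves, against 2.03, 1.74 and 1.61 in control leaves. In these genes OX.NAC61 replicate 1 was again above every control and replicate 2 below every control, and the log2 fold changes were 0.15 (limma adjusted p = 0.786) and -0.03 (limma adjusted p = 0.974). In VIT_16s0013g00990 OX.NAC61 replicate 3 was above every control too, and its arrays were ordered as in VIT_16s0013g01060. VIT_16s0013g00900, a dim probe, had levels of -4.06, -5.52 and -4.58 in OX.NAC61 leaves, against -4.58, -4.92 and -5.16 in control leaves. Its OX.NAC61 arrays covered the whole control range and went beyond it on both ends, and its log2 fold change was 0.17 ± 0.38 (SE, 95% interval -0.76 to 1.09, limma adjusted p = 0.854). VIT_16s0013g01090 had levels of -1.05, -1.66 and -0.87 in OX.NAC61 leaves, against -0.69, -1.21 and -1.32 in control leaves. It was the member in which a control array was the highest, and its log2 fold change was -0.12 (limma adjusted p = 0.849).

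The tenth member, VIT_16s0013g00970, was not tested, since its spot was well above background on 1 OX.NAC61 array and 0 control arrays. Its values were -7.89, -7.28 and -7.76 in OX.NAC61 leaves, against -6.90, -7.29 and -7.49 in control leaves, and its groups overlapped. The single detected spot was that of OX.NAC61 replicate 2, so no fold is given for this gene.

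**Figure D2:**
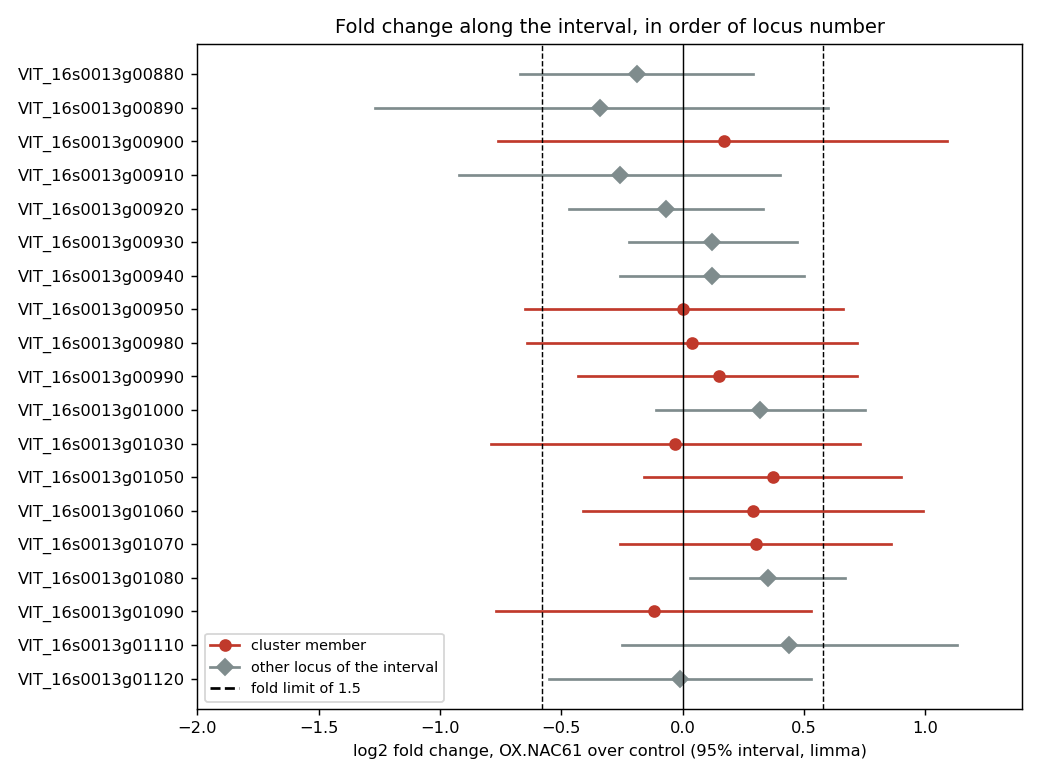
Log2 fold change of OX.NAC61 over control (x axis) with its 95% interval from limma for the 9 tested members (circles) and the 10 other tested loci of the interval (diamonds), in order of locus number from top to bottom; dashed lines mark a fold of 1.5. Every member's interval includes 0, and VIT_16s0013g01080 is the locus whose interval lies above 0, at 0.03 to 0.67.

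What the 9 tested members shared was that OX.NAC61 replicate 2 was the lowest of the 3 OX.NAC61 arrays. Replicate 1 was the highest of the 3 except in VIT_16s0013g01090, where replicate 3 was. OX.NAC61 replicate 1 was above all 3 controls in 8 of 9 members, with a median deviation from the control mean of 0.55. OX.NAC61 replicate 2 was below all 3 controls in 7 of 9 members, with a median deviation of -0.46. OX.NAC61 replicate 3 was above the control mean in 9 of 9 members, by 0.05 to 0.47. The 3 arrays of the group thus lay on different sides of the control mean, with group means close together and single arrays far apart. Over all features the median deviation was -0.03, -0.07 and -0.07 on OX.NAC61 replicates 1, 2 and 3. The share of all features with the members' order was not counted. Replicate 2 was also the lowest OX.NAC61 array in the neighbouring loci VIT_16s0013g00880, VIT_16s0013g00890, VIT_16s0013g01000 and VIT_16s0013g01080, though not in the other tested loci of the interval.

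OX.NAC61 replicate 1 exceeded replicate 2 in 9 of 9 members, by 0.61 in VIT_16s0013g01090 up to 1.46 in VIT_16s0013g00900, with a median of 0.91. Over all features the median of this difference was 0.06, and 9.45% of features had a difference of at least 0.91. OX.NAC61 replicate 3 exceeded replicate 2 by 0.50 to 0.94, with a median of 0.59, a value reached by 9.57% of all features. The difference between replicates 1 and 2 was positive in 9 of 9 members under every scaling tried, at 0.07 to 0.93 with no scaling, 0.53 to 1.27 after quantile normalization and 0.26 to 1.1 in the values that the authors deposited. The SD over the OX.NAC61 arrays was 0.36 to 0.74 with a median of 0.47, and that over the control arrays was 0.12 to 0.33 with a median of 0.24. The OX.NAC61 SD exceeded the control SD in 9 of 9 members and in 60.9% of all features.

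**Figure D3:**
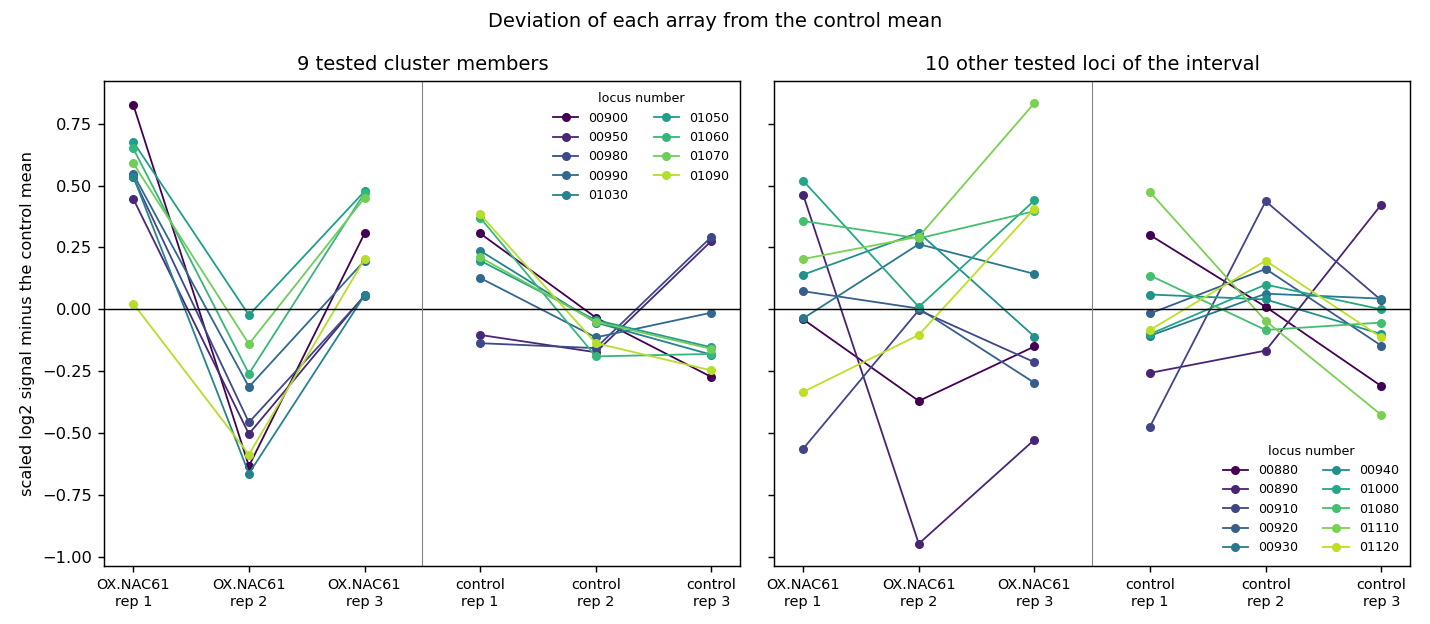
Scaled log2 signal minus the control mean (y axis) on the 3 OX.NAC61 arrays and then the 3 control arrays, 1 line per gene, for the 9 tested members (left panel) and the 10 other tested loci of the interval (right panel). The members' lines run nearly parallel on the OX.NAC61 arrays, with medians of 0.55, -0.46 and 0.20 on replicates 1, 2 and 3. The lines of the other loci cross, although VIT_16s0013g01000 runs like the members. In VIT_16s0013g00880 and VIT_16s0013g00890, too, replicate 1 is the highest OX.NAC61 array and replicate 2 the lowest.

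Over the 6 arrays, Pearson's r between pairs of members was above 0 in 36 of 36 pairs, at 0.329 to 0.994 with a median of 0.779. These correlations describe 6 points that share arrays, scaling and plants. The closest pair was VIT_16s0013g00950 and VIT_16s0013g00980 (r = 0.994), the pair with the raised control replicate 3, followed by VIT_16s0013g01050 and VIT_16s0013g01070 (r = 0.989). The lowest value was that between VIT_16s0013g00980 and VIT_16s0013g01090 (r = 0.329). Against the mean of the other members, r was 0.985 for VIT_16s0013g00990, 0.971 for VIT_16s0013g00900 and 0.691 for VIT_16s0013g01090. It was above 0.9 for 5 of the 9 tested members, and 0.648% of all features had an r above 0.9 with the mean profile of the cluster. Among the 10 other tested loci of the interval r ran from -0.733 in VIT_16s0013g00910 to 0.707 in VIT_16s0013g01000, the last above the value of the member VIT_16s0013g01090. VIT_16s0013g01000 had levels of -0.98, -1.49 and -1.06 in OX.NAC61 leaves, against -1.60, -1.40 and -1.50 in control leaves, with replicates 1 and 3 above every control and replicate 2 among them. Probe sequences were not used here, so whether the probe of one tandem copy also binds the transcript of another was not tested.

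The scan day and the slide moved in part with the order of the OX.NAC61 arrays, and their share in that order was not tested. OX.NAC61 replicate 1, the high array, was scanned with the controls, and replicate 2, the low one, was scanned on the other day with replicate 3, which was above replicate 2 in every tested member. With scan day as a block the fit compares OX.NAC61 replicate 1 with the controls, and the members' log2 fold changes were 0.02 to 0.83 with a median of 0.55, above 0 in 9 of 9, with a lowest limma adjusted p of 0.468. By the recorded slides, OX.NAC61 replicates 1 and 3 minus control replicate 3 on slide 1 gave -0.02 to 0.84, and OX.NAC61 replicate 2 minus control replicate 2 on slide 2 gave -0.62 to 0.02. Control replicate 1, alone on slide 3, entered neither difference. All controls had the same recorded position, which no OX.NAC61 array had, so position and group cannot be told apart. Leaving out OX.NAC61 replicate 2 moved the members' log2 fold changes to 0.11 to 0.57, above 0 in 9 of 9, with a lowest limma adjusted p of 0.217. Leaving out OX.NAC61 replicate 1 moved them to -0.31 to 0.22, above 0 in 3 of 9.

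Other loci of the same interval, from VIT_16s0013g00880 to VIT_16s0013g01130, were examined as neighbours. Of 13 on the array 10 were tested and 0 were called, against 6.81% of all features. With so few loci a count of 0 does not set the interval apart. VIT_16s0013g01080, between the members VIT_16s0013g01070 and VIT_16s0013g01090, had levels of 2.95, 2.88 and 2.99 in OX.NAC61 leaves, against 2.73, 2.51 and 2.54 in control leaves. The groups did not overlap, as in 9.88% of all features in this direction, but the log2 fold change of 0.35 ± 0.13 (SE, limma adjusted p = 0.211) did not pass. The 3 OX.NAC61 arrays of this locus differed by an SD of 0.05, against SDs of 0.39 and 0.41 in its member neighbours VIT_16s0013g01070 and VIT_16s0013g01090. The study's annotation places AP2/ERF genes at both ends of the interval. VIT_16s0013g00890 (ERF077) had a log2 fold change of -0.34 (limma adjusted p = 0.684) with OX.NAC61 replicate 1 above replicate 2 by 1.41, and VIT_16s0013g01120 (ERF092) had one of -0.01 (limma adjusted p = 0.989) with replicate 1 below replicate 2 by 0.23. The other tested loci had log2 fold changes of -0.26 in VIT_16s0013g00910 to 0.44 in VIT_16s0013g01110.

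Among the AP2/ERF genes that the study's tables list outside the interval, DREB genes aside, more were called higher than lower. Over all features 3.09% were called higher and 3.72% lower. The list holds 30 tested genes, of which VIT_13s0019g00540 (named after its values were seen, log2 fold change 0.37, not called) is annotated only as an ethylene-responsive protein, and 11 were called higher and 3 lower in OX.NAC61 leaves, with a median log2 fold change of 0.84, against -0.05 over all features. With scan day as a block 0 of the 30 were called, 18 had an unadjusted p under 0.05 and the median stayed at 0.76, whereas with normexp background correction and 75th percentile scaling 0 were called and the median was -0.21, where that of all features was -0.50. Leaving out 1 array gave 1 (without control replicate 2), 2 (without control replicate 3), 3 (without OX.NAC61 replicate 3), 6 (without control replicate 1), 7 (without OX.NAC61 replicate 2) and 16 calls (without OX.NAC61 replicate 1), and the median stayed at 0.74 to 0.91. The lower calls were 4 without OX.NAC61 replicate 1 and 0 in the other 5 of these fits. They were also 0 with the replicate block or the slide block, each with 7 called higher, and at an adjusted p below 0.05, with 5 called higher. The list came from tables that the study filled partly with genes called on these arrays, so its count is not independent evidence of a direction. For 9 of its genes a source was co-expression with NAC61 in other experiments. Of these 4 were called higher and 0 lower, against 3.09% higher and 3.72% lower over all features. The count over these 9 was not repeated under the alternatives. ERF072 (VIT_15s0021g01630) had levels of -0.47, -1.18 and -0.98 in OX.NAC61 leaves, against -4.01, -4.77 and -5.50 in control leaves, a log2 fold change of 3.88 (limma adjusted p = 0.0228). RAV5 (VIT_08s0007g02810), whose class carries a B3 domain beside the AP2 domain, had levels of -0.39, -0.38 and -0.52 in OX.NAC61 leaves, against -1.77, -1.81 and -1.90 in control leaves (limma adjusted p = 0.0184). In these genes all 3 OX.NAC61 arrays stood well above all controls, OX.NAC61 replicate 2 included. ERF075 (VIT_10s0003g00580) had a log2 fold change of 1.20 (limma adjusted p = 0.0441). ERF117 (VIT_03s0063g00460) was called higher (limma adjusted p = 0.0301) but was not well above background in any control leaf. Under the main scaling it was at least 2.38-fold higher in OX.NAC61 leaves. That fold sets its mean in OX.NAC61 leaves against the faintest signal that counted as above background on each control array, or the probe's own signal where higher. The bound did not hold under other background corrections. The log2 fold change was 0.46 with normexp and quantile normalization, and 0.03 with normexp after marked backgrounds were replaced. The call of ERF117 was lost in 5 of 17 alternatives and its sign turned in 1 more.

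**Figure D4:**
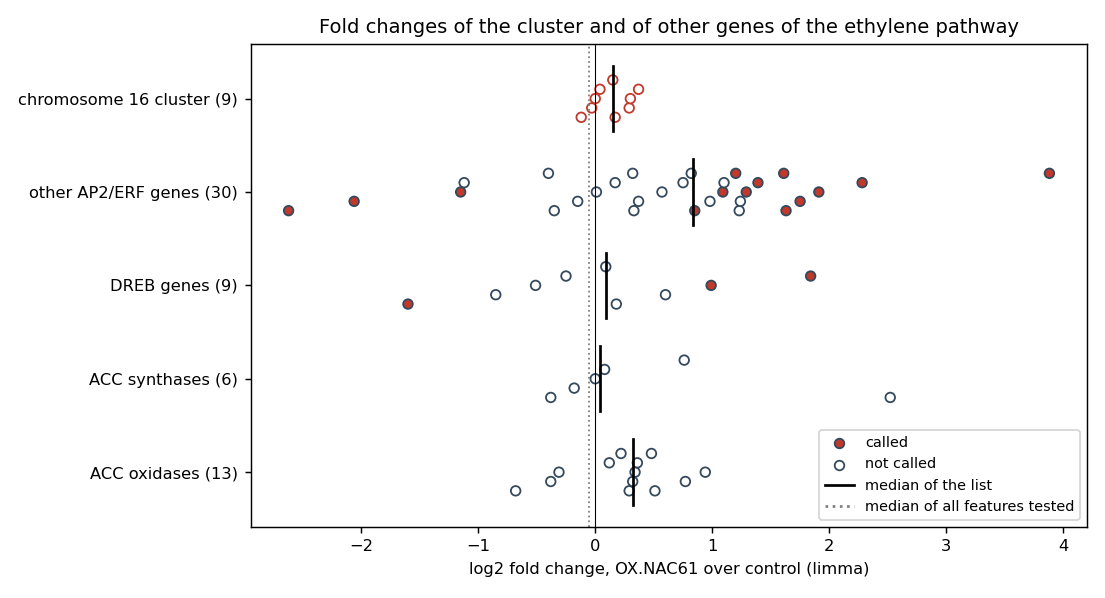
Log2 fold change of OX.NAC61 over control (x axis, limma) for each tested gene of the chromosome 16 cluster and of 4 annotated lists (rows, with the number tested); filled points were called, black bars are list medians and the dotted line is the median of all features, -0.05. The cluster spans -0.12 to 0.37 with 0 of 9 called, and the other AP2/ERF genes span -2.62 to 3.88 with 11 called higher and 3 lower. Over all features 3.09% were called higher and 3.72% lower. The lists came from tables filled partly with genes called on these arrays, whereas the cluster was taken by identifier, so the contrast is partly built in.

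DREB genes, the AP2/ERF branch known for dehydration and cold responses, gave 2 called higher and 1 lower of 9 tested. Over all features 3.09% were called higher and 3.72% lower. Like the AP2/ERF list, this one came from tables filled partly with genes called on these arrays, so its count is not independent evidence. DREB19 (VIT_13s0067g01960) and DREB25 (VIT_16s0100g00400) were higher, with log2 fold changes of 1.84 (limma adjusted p = 0.0592) and 0.99 (limma adjusted p = 0.0779). DREB30 (VIT_18s0089g01030) was lower, with a log2 fold change of -1.60 (limma adjusted p = 0.0284). With scan day as a block none of the named AP2/ERF or DREB genes outside the cluster was called, although the log2 fold changes remained 4.29 in ERF072, 1.43 in RAV5, 2.39 in ERF117, 1.36 in ERF075, -1.37 in DREB30, 1.49 in DREB19 and 0.97 in DREB25 (limma adjusted p = 0.135 to 0.403). The sign turned with normexp background correction and 75th percentile scaling for ERF117, DREB19 and DREB25. The balance of the DREB list turned with the scaling, at 0 called higher and 2 lower in the deposited values and 1 higher and 2 lower with normexp and quantile normalization. In the deposited values the log2 fold change was 0.53 for DREB19 and 0.28 for DREB25, and neither was called. The call of DREB25 was lost in 12 of 19 alternatives and its sign turned in 1 more. Of the 9 DREB genes 0 were called without control replicate 2 or 3, 1 without OX.NAC61 replicate 2 or 3, 2 without control replicate 1 and 4 without OX.NAC61 replicate 1. Upstream of the ERF genes, 0 of 6 tested ACC synthases, 0 of 13 ACC oxidases and 0 of 2 CTR1-annotated kinases were called, with median log2 fold changes of 0.04, 0.32 and 0.29. Single genes of these lists, named after their values were seen, were higher without overlap between the groups and missed the threshold. Over all features the groups did not overlap for 9.88% as higher and 16.2% as lower, so such genes do not set these lists apart. The ACC synthase VIT_15s0046g02220 had levels of -2.09, -3.89 and -2.59 in OX.NAC61 leaves, against -4.61, -6.87 and -4.65 in control leaves, a log2 fold change of 2.52 (limma adjusted p = 0.133). The ACC oxidases VIT_02s0012g00450 and VIT_05s0049g00410 had log2 fold changes of 0.51 (limma adjusted p = 0.125) and 0.48 (limma adjusted p = 0.194), and a further ACC oxidase, VIT_18s0001g01840, was lower without overlap, at -0.68 (limma adjusted p = 0.261).

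The 5 features outside the interval whose 6-array profile was most like the mean profile of the cluster were named by their Pearson r alone. VIT_14s0068g00730 had an r of 0.997, VIT_11s0118g00310, annotated as a galactolipid-forming diacylglycerol galactosyltransferase, had 0.986, and VIT_18s0041g01570 and VIT_16s0039g02010 had 0.983 each. The fifth, VIT_12s0059g01380, is annotated as ACC oxidase 1, an enzyme of the last step of ethylene synthesis, and had an r of 0.979. Its levels were 3.72, 2.50 and 3.41 in OX.NAC61 leaves, against 3.17, 2.68 and 2.77 in control leaves, so that replicates 1 and 3 were above and replicate 2 below every control. Its log2 fold change was 0.34 (limma adjusted p = 0.628). Over the 13 ACC oxidases r ran from -0.461 to 0.979 with a median of 0.184, and over the 30 other AP2/ERF genes from -0.844 to 0.968 with a median of 0.258. The highest of those AP2/ERF genes, ERF057 (VIT_07s0005g00820, named after its value was seen), had levels of 3.37, 1.77 and 2.78 in OX.NAC61 leaves, against 2.42, 2.33 and 2.18 in control leaves.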

How the data were processed

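Leaf RNA was hybridised to one-colour arrays, 3 OX.NAC61 and 3 control. The deposited intensity values came, per the file headers, from Agilent Feature Extraction 10.5.1.1, which subtracts background from each spot, and had not been normalized between arrays. The authors also deposited log2 values for 26157 probes, of which 9 were cluster members; they rank as background-subtracted median signal, with column medians of 9.61 to 9.62, and were used as an alternative. Their exact normalization was not given in the sources used here.

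The processed signal was put on the log2 scale and the 75th percentile of each array was subtracted. Outlier spots, non-uniform or by population, were set aside and affected 81 features. A feature entered the 2-sided test if 3 or more arrays had it well above background. Models were fitted by lmFit with eBayes of limma 3.58.1 under R 4.3.3, adjusted by Benjamini-Hochberg over all 27052 features, and called at an adjusted p below 0.1 and a fold above 1.5. The fit was checked on simulated data with independent noise for each feature and array. No effect of slide or scan day was simulated, so the check does not cover such effects. The number of arrays limits the precision. The p-values measure the spread between arrays of this one experiment, in which plant, array, slide and scan day are not separated.

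Members, lists and named genes were chosen with earlier results of these data known. Named genes were all members, loci 880 to 1130 of the same prefix, NAC61, called genes of each list (for more than 4, those 4 with the smallest p), and the 5 features most like the mean member profile. Lists came from annotations in the study's tables. Leaf markers were read for presence and count only. The array identifiers had no match in the gene table used here, so no sequences or coordinates are given. Alternatives changed the scaling, background correction, filter, variance model, blocks, thresholds and arrays included.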

Additional observations from a re-analysis of the deposited data

How the results depend on the processing

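The count of cluster members called was 0 under all 19 alternatives, and leaving out each array in turn gave 0 to 0. The 3 neighbours VIT_16s0013g01050, VIT_16s0013g01060 and VIT_16s0013g01070 kept a log2 fold change above 0 in each. Other members sit near 0 and turned sign. VIT_16s0013g01030 (-0.03) became 0.07 in the deposited values, 0.15 with normexp background correction and 75th percentile scaling, 0.07 with normexp and quantile normalization, 0.01 with quantile normalization, 0.04 with normexp after marked backgrounds were replaced (chosen after seeing the data), 0.53 with scan day and 0.01 with slide as a block. VIT_16s0013g00900 became -1.19 with normexp and 75th percentile scaling and -0.26 with replaced backgrounds. VIT_16s0013g01090 became 0.02 with scan day and 0.01 with slide as a block, and with slide VIT_16s0013g00950 became -0.15 and VIT_16s0013g00980 -0.13. Leaving out 1 array at a time gave -0.16 to 0.57 for VIT_16s0013g00900, -0.22 to 0.25 for VIT_16s0013g00950, -0.21 to 0.29 for VIT_16s0013g00980, -0.06 to 0.37 for VIT_16s0013g00990, -0.31 to 0.29 for VIT_16s0013g01030, 0.22 to 0.57 for VIT_16s0013g01050, 0.10 to 0.56 for VIT_16s0013g01060, 0.16 to 0.52 for VIT_16s0013g01070 and -0.28 to 0.11 for VIT_16s0013g01090. The cause of these turns was not tested.

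The count of all features called, 1843, is less stable. It was 0 with normexp and 75th percentile scaling (3280 at an unadjusted p under 0.05, median log2 fold change of all features -0.50), 5354 with replaced backgrounds (824 higher and 4530 lower, median -0.21), 1157 in the deposited values, 589 with slide (439 higher and 150 lower) and 13 with scan day as a block (2993 at an unadjusted p under 0.05), and 657 at an adjusted p below 0.05. Leaving out 1 array gave 71 to 3225, the lowest without control replicate 2 and the highest without OX.NAC61 replicate 1, with 220 without control replicate 3, 328 without OX.NAC61 replicate 3, 705 without OX.NAC61 replicate 2 and 1031 without control replicate 1. The NAC61 log2 fold change was 0.88 (limma adjusted p = 0.257) with normexp and 75th percentile scaling, 1.60 (0.104) with slide and 1.23 (0.198) with scan day as a block, and 1.48 to 1.81 with 1 array left out, where it missed the threshold without control replicate 2 (0.125) or 3 (0.105). The replicate number as a block gave 1020 features called (636 higher and 384 lower) and 0 members. Arrays sharing a number had deviations from the group means with correlations of 0.205, -0.044 and 0.212. With so few arrays per group these values cannot show whether arrays of the same number shared a step, and that was not tested. The cause of these shifts was not tested. With normexp and 75th percentile scaling the log2 fold change was -1.29 for ERF117, -0.33 for DREB19 and -0.87 for DREB25.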
